A study of Mus musculus with 4 samples.

Results

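The miRNAs described here are the mouse miR-297, miR-466, miR-467 and miR-669 families, most of whose hairpins lie in an intron of Sfmbt2. They were taken by name from the 4 deposited miRNA tables, which list 80 such names among 1908 miRNA names. A sense-strand read of 18 nt or more was present for 71 of the 80 names, against 645 names in all. Names with equal counts at every start position and length in all 4 libraries share their reads and were collapsed, which left 60 members among 532 miRNAs.

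Small RNA had been sequenced from 4T1 and 4TO7, related mouse mammary carcinoma cell lines, and from vesicles shed by these cells (extracellular vesicles, EVs). Both lines grew in DMEM with serum freed of EVs, and the labels give no other treatment. EVs, which are enclosed by a membrane and hold RNA, were collected from the cells by differential centrifugation. Each of the 4 groups, 4T1 cells, 4TO7 cells, 4T1 EVs and 4TO7 EVs, is 1 library, so no spread between cultures can be estimated and each comparison is between libraries.

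An miRNA is cut from a hairpin in a longer transcript, first by Drosha and then by Dicer, and either arm of the hairpin (5p or 3p) can give the mature miRNA. Bases 2 to 8 of the mature miRNA, the seed, pair with target transcripts. Sfmbt2 encodes a Polycomb-group protein and is an imprinted gene expressed from the paternal copy in the extraembryonic tissues of the mouse, and its large intronic miRNA cluster is known for a part in placental development. The cluster consists of repeated copies of a block that holds hairpins of several families, so many members are nearly identical to one another.

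The position of the hairpins was checked against RefSeq on GRCm38.p6. Of 82 hairpins of the 4 families, 72 lay inside Sfmbt2 (chr2:10370440-10595253) and 10 elsewhere. Every one of the 72 fell in intron 11 of the Sfmbt2 transcript with most exons, between chr2:10466663 and chr2:10518279, and 0 overlapped an exon of any Sfmbt2 transcript. The intron held 5 hairpins of miR-297, 24 of miR-466, 14 of miR-467 and 29 of miR-669, and the 71 with a strand in the annotation were on the strand of Sfmbt2. Among the 80 names, 64 had hairpins in Sfmbt2 alone, 9 had hairpins elsewhere alone, 5 had both and 2 were not matched. Names with hairpins in Sfmbt2 alone took 92.5% of member alignments in the 4T1 cell library, 84.4% in that of 4TO7 cells, 90.4% in 4T1 EVs and 88.3% in 4TO7 EVs, where a collapsed member can stand in more than 1 of these classes.

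Mature sequences were at hand for 8 of the 80 names, all 8 of them with hairpins outside Sfmbt2, and their 8 seeds were all different. The 4 shown here were chosen because they had reads in both cell lines and because they show the dinucleotide repeats that run through these families, which bear on how short reads are assigned. The sequences are from RefSeq (GRCm38.p6), 5′ to 3′, with the seed in capitals.
miR-466i-3p: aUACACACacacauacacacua
miR-467f: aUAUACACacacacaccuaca
miR-466k: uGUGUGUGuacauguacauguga
miR-467h: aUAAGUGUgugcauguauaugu
Their mature positions are chr13:17747552-17747573 on the + strand, chr11:69635419-69635439 on the - strand, chr3:85467396-85467418 on the + strand and chr9:115381898-115381919 on the + strand, in the same order. CA or AC steps made up 15 of the 21 steps between neighbouring bases of miR-466i-3p and 13 of the 20 of miR-467f, and UG or GU steps 13 of the 22 of miR-466k and 10 of the 21 of miR-467h. Searched as letters, with overlaps allowed, a run of CACACACA or ACACACAC was present in 4 of the 8 member sequences and in 4 of all 1679 mature miRNAs of the table (0.238%), so within that table all mature miRNAs that held it were members. A run of UGUGUGUG or GUGUGUGU was present in 2 of the 8 and in 9 of the 1679 (0.536%).

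Total sense alignments of 18 nt or more to miRNAs were 603186 in 4T1 cells, 177647 in 4TO7 cells, 57962 in 4T1 EVs and 51697 in 4TO7 EVs, and RPM below are reads per 1000000 of these alignments. The genome-aligned reads were 13505699, 11274041, 7625978 and 5171514 in the same order. The epithelial miR-200c-3p had 1202 reads in cells of 4T1 and 0 in those of 4TO7, which allows up to 16.9 RPM there, and the liver and serum miRNA miR-122-5p had 1 read in each cell library against 160 in 4T1 EVs and 1092 in 4TO7 EVs. The part of such RNA from outside the cells in the EV values was not tested. The blood-cell miRNAs miR-142a-3p and miR-223-3p had 0 reads in all 4 libraries, while the erythroid miR-451a had 0 in both cell libraries, 2 in 4T1 EVs (34.5 RPM) and 9 in 4TO7 EVs (174 RPM). The other erythroid miRNAs looked up, miR-144-3p, miR-486a-5p and miR-486b-5p, had 0 reads in all 4 libraries. Intervals are exact 95% Clopper-Pearson or conditional binomial intervals and cover counting error only, since the PCR reads carry no molecular identifiers and copies of a molecule cannot be told apart. In bulk libraries, fewer cells with an miRNA and less of it per cell cannot be told apart.

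The members were a minor class that took a larger share of miRNA alignments in cells than in EVs and in 4T1 than in 4TO7. In cells they held 7322 alignments from 4T1 (1.21%, interval 1.19 to 1.24) and 1254 from 4TO7 (0.706%, 0.667 to 0.746). In EVs they held 270 alignments from 4T1 (0.466%, 0.412 to 0.525) and 60 from 4TO7 (0.116%, 0.0886 to 0.149). None of the 4 intervals overlapped another, but they take each alignment as a separate read. Reads shared between members still count more than once, so the intervals are too narrow. In a separate count, entries of the same length with equal counts in all 4 libraries, and 10 or more reads in total, were merged. The shares were then 1.12% in 4T1 cells, 0.643% in 4TO7 cells, 0.374% in 4T1 EVs and 0.114% in 4TO7 EVs. Entries with nearly equal counts or fewer reads were not merged, so shared reads can still count more than once. Without this merging, the share in EVs was 2.61-fold lower than in cells for 4T1 (2.31 to 2.95) and 6.08-fold lower for 4TO7 (4.69 to 8.02). Between lines, the share was 1.72 times as high in 4T1 as in 4TO7 cells (1.62 to 1.83) and 4.01 times as high in 4T1 as in 4TO7 EVs (3.02 to 5.40).

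The size of these differences depended on the read length and on the total used. With reads of 21 nt or more alone, the EV share was 5.82-fold lower than the cell share in 4T1 (4.49 to 7.70) and 7.63-fold lower in 4TO7 (5.31 to 11.4), and the 4T1 EV share was 2.56 times the 4TO7 EV share (1.61 to 4.12). Per genome-aligned read, member alignments were 15.3-fold lower in EVs than in cells for 4T1 and 9.59-fold lower for 4TO7, and 4.87 times as high in 4T1 as in 4TO7 cells. Of the alternatives tried, only counting reads of every listed length down to 10 nt on both strands turned a direction, with a share in 4T1 cells of 0.712 times that in 4TO7 cells (0.697 to 0.727).

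miR-467a-5p was the most abundant member in both cell lines and was close to absent from both EV libraries. It had 3162 reads (5242 RPM) in 4T1 cells, 407 (2291 RPM) in 4TO7 cells, 3 in 4T1 EVs (51.8 RPM) and 1 in 4TO7 EVs (19.3 RPM). Both cell libraries were far above both EV libraries. Of the member alignments in cells, it made up 43.2% in 4T1 (42.0 to 44.3) and 32.5% in 4TO7 (29.9 to 35.1), against 1.11% in 4T1 EVs (0.230 to 3.21) and 1.67% in 4TO7 EVs (0.0422 to 8.94). Its EV level was 101-fold lower than its cell level in 4T1 (34.6 to 491) and 118-fold lower in 4TO7 (21.1 to 4690), ratios that rest on 3 and 1 EV reads. Without it, the EV share of the other members was 1.5-fold lower than the cell share in 4T1 (1.32 to 1.70) and 4.18-fold lower in 4TO7 (3.21 to 5.54). With reads of 21 nt or more and without it, the folds were 3.28 in 4T1 (2.51 to 4.37) and 4.85 in 4TO7 (3.34 to 7.30).

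**Figure D1:**
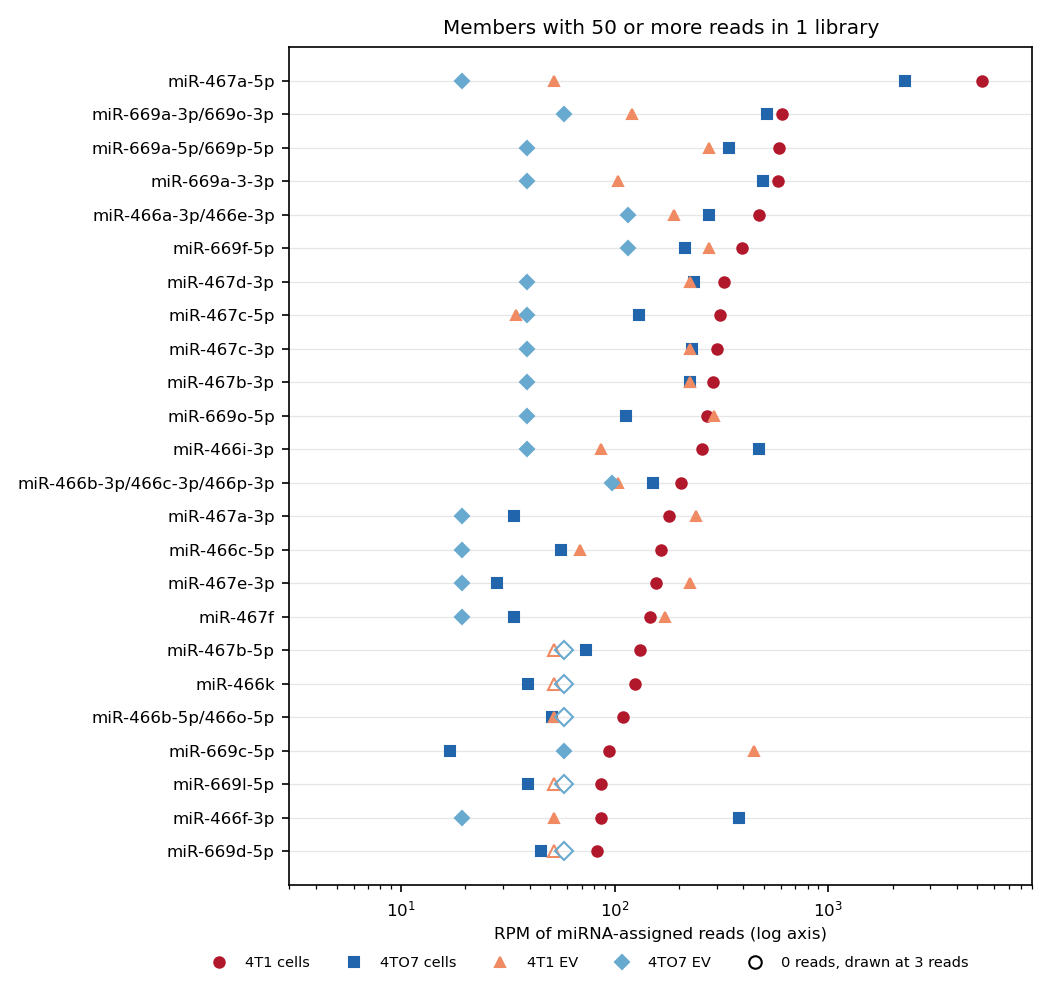
RPM of miRNA-assigned reads (log axis) of the 24 members with 50 or more reads in at least 1 library, in each of the 4 libraries; open symbols mark 0 reads and are drawn at 3 reads. miR-467a-5p stands at 5242 and 2291 RPM in 4T1 and 4TO7 cells and at 51.8 and 19.3 RPM in their EVs, while miR-669c-5p is highest in 4T1 EVs.

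By family, the miR-467 names were the largest in cells. In EVs the order of the larger families was not resolved, since their intervals overlapped. The miR-669 names had 93 alignments in 4T1 EVs against 86 of miR-467. In 4TO7 EVs they had 22, against 19 of miR-466 and 17 of miR-467. Some of these alignments are 1 set of reads listed under several names. The miR-467 names took 59.6% in 4T1 cells, 47.8% in 4TO7 cells, 31.9% in 4T1 EVs and 28.3% in 4TO7 EVs. The miR-669 names took 23.5%, 26.7%, 34.4% and 36.7% in the same order, and the miR-466 names 15.4%, 24.1%, 20.4% and 31.7%. The miR-297 names took 1.53% and 1.44% in the cells, 13.3% in 4T1 EVs and 3.33% in 4TO7 EVs, the last from 2 alignments. The 13.3% was 36 alignments, 18 under each of 2 names.

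After miR-467a-5p, the next members in 4T1 cells came from miR-669 and miR-466. miR-669a-3p, whose counts equal those of miR-669o-3p, had 366 reads in 4T1 cells, 92 in 4TO7 cells, 7 in 4T1 EVs and 3 in 4TO7 EVs. miR-669a-3-3p, from another copy of the hairpin, had 350, 88, 6 and 2. miR-669a-5p, equal to miR-669p-5p, had 354, 61, 16 and 2. All 3 were higher in read number in both cell libraries than in either EV library. miR-466a-3p, equal to miR-466e-3p, had 285 reads in 4T1 cells, 49 in 4TO7 cells, 11 in 4T1 EVs and 6 in 4TO7 EVs, and miR-669f-5p had 237, 38, 16 and 6. The 3p arms of miR-467d, miR-467c and miR-467b had 197, 181 and 175 reads in cells of 4T1, 42, 41 and 40 in those of 4TO7, and each had 13 in 4T1 EVs and 2 in 4TO7 EVs. Their counts were nearly equal in every library and part of their reads was shared, so these 3 are not independent. Among members under 50 reads in every library, 36 of the 60, the highest count was 47, for miR-297c-5p in 4T1 cells.

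The arm that gave most reads differed among hairpins of these families. In cells, the 3p share of miR-467a was 3.30% for 4T1 (2.72 to 3.97) and 1.45% for 4TO7 (0.535 to 3.14). miR-669p and miR-669f also gave mainly 5p reads in 4T1 cells, with 3p shares of 0.840% (0.174 to 2.44) and 9.54% (6.27 to 13.8). By contrast, miR-466a gave 97.3% 3p reads in cells of 4T1 (94.7 to 98.8) and 96.1% in those of 4TO7 (86.5 to 99.5). miR-669a was divided nearly evenly, at 50.8% 3p for 4T1 cells (47.1 to 54.5) and 60.1% for 4TO7 cells (51.9 to 67.9). miR-467b stood at 68.9% and 75.5% and miR-467c at 49.2% and 64.1%, and within each of these hairpins the intervals of the lines overlapped. An arm shared with another hairpin counts for both, so these shares belong to the names and not to single hairpins.

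In 4T1, 24 members had 50 or more reads in cells or EVs, and all 24 passed this minimum through the cell library alone. A ratio was called when its interval lay wholly above 2-fold or wholly below a ratio of 0.5. Of the 24, 1 was higher in EVs, where 10.9% of all 201 miRNAs compared were higher, and 5 were lower, where 30.3% were lower. Among the 102 other miRNAs that passed through the cell library alone, 39 were lower (38.2%), against 20.8% of the members. The median log2 ratio of EV to cell RPM was −0.96 over the 24 members and −1.07 over all 201 miRNAs. Over the 102 others that passed through the cell library alone, it was −1.95. Under most other settings the share lower was again smaller among members than among all. It was 39.3% against 50% with reads of 16 nt or more, and 9.52% against 17.6% with 21 nt or more. With TMM scaling it was 16.7% against 28.4%, and with median-of-ratios size factors 4.17% against 17.4%. It was larger with every listed length on both strands, at 36 of 77 (46.8%) against 32.1% of all. With genome-aligned reads it was 23 of 24 against 85.1%, while the medians, shifted alike, were −3.51 over members and −3.62 over all. At a minimum length of 21 nt the median was −2.16 over members and −1.03 over all. A 4T1 EV library with 0 reads could give the lower call only where the cells had 79 or more.

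The 5 members lower in 4T1 EVs were miR-467a-5p, miR-467b-5p, miR-467c-5p, miR-669a-3-3p and miR-669a-3p/miR-669o-3p. miR-467b-5p had 79 reads in cells and 0 in EVs, which makes it at least 2.53-fold lower against a floor of 3 EV reads, with an exact interval from 2.01-fold. Of the 79 reads, 43 were a 20 nt set shared with miR-467a-5p, and the other 36 are fewer than the 79 that the call needs. miR-467c-5p had 187 reads in cells and 2 in EVs and was 8.98-fold lower (2.45 to 74.7). miR-669a-3-3p was 5.61-fold lower (2.55 to 15.4) and miR-669a-3p/miR-669o-3p 5.02-fold lower (2.41 to 12.6), and these have nearly equal counts (222 and 233 reads of 23 nt in 4T1 cells) and may not be independent. With reads of 21 nt or more, miR-467c-5p, miR-669a-3-3p and miR-669a-3p/miR-669o-3p lost the call. miR-467b-5p had 29 such reads in 4T1 cells, fell below the minimum and was not compared. Of the 5, only miR-467a-5p thus kept the call at this length. With every listed length on both strands, miR-467c-5p lost the call. With TMM scaling miR-467b-5p lost it, and with median-of-ratios size factors all but miR-467a-5p did. The 3 called miR-467 members are 5p arms. Their partner 3p arms had ratios of EV to cell RPM of 1.35 for miR-467a-3p (0.714 to 2.36), 0.773 for miR-467b-3p (0.404 to 1.36) and 0.747 for miR-467c-3p (0.390 to 1.31), but these rest on 1 set of 12 EV reads of 18 nt that is listed under all 3 names and had 0 reads in cells. With reads of 21 nt or more, each partner had 1 EV read against 84, 156 and 160 cell reads, which makes them 4.18-fold (0.731 to 167), 7.77-fold (1.37 to 309) and 7.97-fold (1.41 to 317) lower in EVs.

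miR-669c-5p was the member higher in 4T1 EVs. It had 57 reads in 4T1 cells (94.5 RPM), 3 in 4TO7 cells (16.9 RPM), 26 in 4T1 EVs (449 RPM) and 3 in 4TO7 EVs (58.0 RPM). It ranked first among members in 4T1 EVs, where its RPM was 4.75 times that in cells (2.86 to 7.67). With reads of 21 nt or more its log2 ratio was 2.08 in place of 2.26 and it was no longer called. It also lost the call with reads of 16 nt or more, at 1.40, and with every listed length on both strands, at 0.11. Per genome-aligned read the direction turned, with a log2 ratio of −0.29.

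In 4TO7, 6 members reached 50 reads, all through the cell library alone. All 6 were lower in EVs, where 37.5% of the 128 miRNAs compared were lower, and 0 were higher, against 17.2% of all. With TMM scaling and with median-of-ratios size factors 5 of the 6 were lower, since miR-669a-5p/miR-669p-5p lost the call. Among the 52 other miRNAs that passed through the cell library alone, 26 were lower. The median log2 ratio was −3.33 over the 6 members, from −6.30 to −2.84, and −0.95 over all 128. Over the 52 others that passed through the cell library alone, it was −1.84. Apart from miR-467a-5p, miR-466f-3p had 68 reads in cells and 1 in EVs (19.8-fold, 3.43 to 793), miR-669a-3-3p 88 and 2 (12.8-fold, 3.44 to 107), and miR-466i-3p 84 and 2 (12.2-fold, 3.28 to 103). miR-669a-3p/miR-669o-3p had 92 and 3 reads (8.92-fold, 2.96 to 44.1) and miR-669a-5p/miR-669p-5p 61 and 2 (8.88-fold, 2.35 to 74.9). miR-466f-3p and miR-466i-3p shared 52 reads of 18 nt in 4TO7 cells, so the 6 calls are not independent. With a minimum of 10 reads the median over 17 members was −2.31, and over all 53 members with a read it was −1.03, against −1.11 and −0.28 over all miRNAs.

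**Figure D2:**
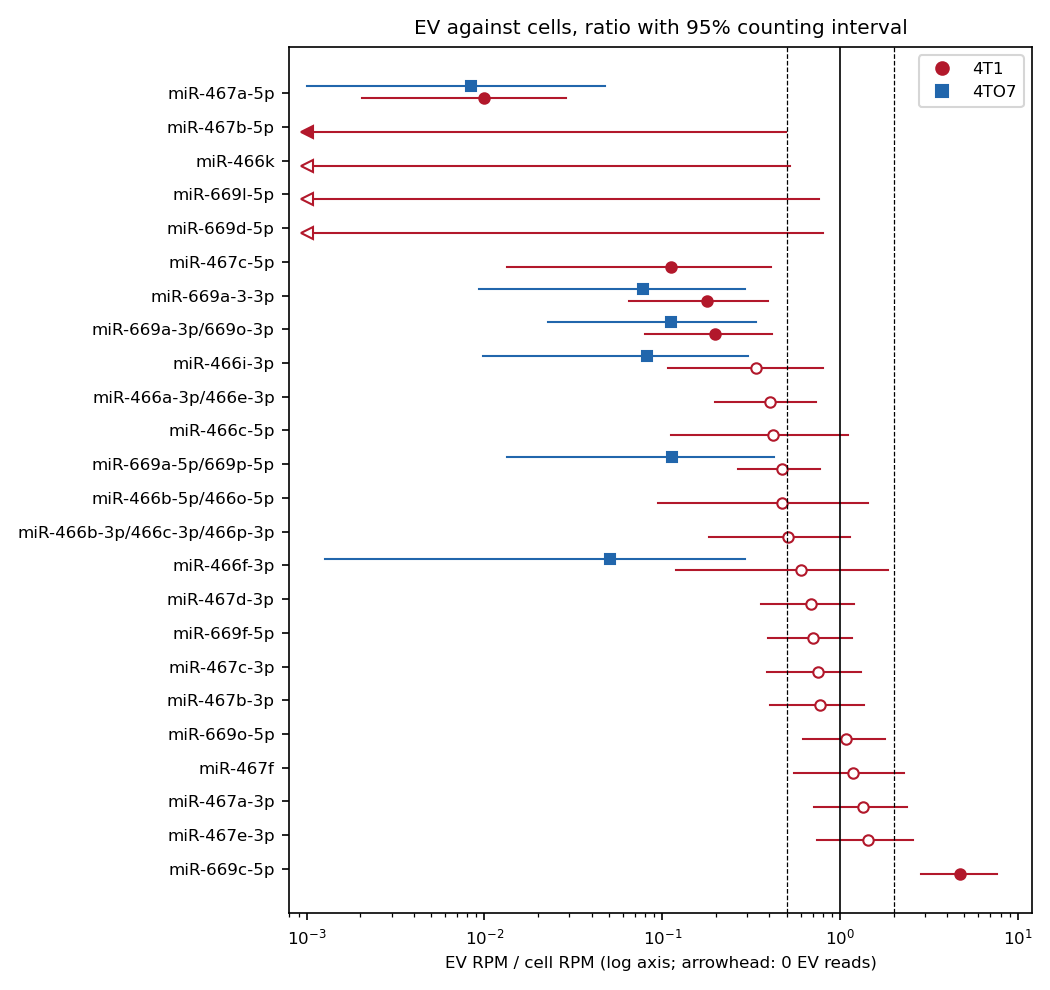
Ratio of EV RPM to cell RPM (log axis) with its exact 95% counting interval for the members compared, in 4T1 (red circles, 24 members) and 4TO7 (blue squares, 6 members). Filled symbols are called, dashed lines mark ratios of 0.5 and 2, arrowheads mark 0 EV reads, and intervals are drawn down to 0.001; among members with an EV read, miR-467a-5p lies lowest in both lines and miR-669c-5p highest in 4T1.

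The difference of this log2 ratio between the lines could be computed for the same 6 members and was called for 0, where 18.3% of the 126 miRNAs compared were called. For miR-467a-5p it was −0.14 on the log2 scale (−2.90 to 2.63), an interval too wide to show that the lines act alike. The largest of the 6 was that of miR-466f-3p, 3.20 higher in 4T1 (0.40 to 6.01). A call needed an interval wholly past 1 or −1.

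Members of other miRNA clusters, taken by mature name and so with any further hairpin copy of that name, gave a scale for these ratios. In 4T1 EVs against cells, 5 of 7 members of the miR-17-92 cluster were lower, with a median log2 ratio of −1.89, and 2 of 7 of the miR-322 cluster, with a median of −1.94. In 4TO7 these were 5 of 6 with a median of −2.98 and 3 of 7 with −1.92. Neither list had a member called higher in EVs in either line.

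Between the cell lines, most members had a higher RPM in 4T1, but few passed the call. Of 24 members compared, 22 had a log2 ratio of 4T1 to 4TO7 above 0. The median was 0.83, against 0.16 over all 201 miRNAs, −0.29 over the miR-17-92 cluster and −1.25 over the miR-322 cluster. The deeper 4T1 library alone brought 18 of the 24 past 50 reads, and their median was 1.04, against 0.61 for the 65 other miRNAs that passed in this way. The 6 members with 50 reads in both libraries had a median of 0.22, with ratios from 0.225 to 2.29, against −0.18 for 110 other miRNAs. In calls, 3 of 24 were higher in 4T1 where 13.9% of all were, and 1 was lower where 5.47% of all were. miR-467a-5p was 2.29 times as high in 4T1 cells (2.06 to 2.54). miR-467a-3p, with 108 reads against 6, was 5.30 times as high (2.36 to 14.8), and miR-467e-3p, with 94 against 5, was 5.54 times as high (2.29 to 17.4). The exception was miR-466f-3p, with 52 reads in cells of 4T1 and 68 in those of 4TO7, which was 4.44-fold lower in 4T1 (3.05 to 6.50). miR-466i-3p, with 154 and 84 reads, was the only other member below 1, at a ratio of 0.540 (0.411 to 0.713), which was not called.

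Each of these 4 calls was lost under at least 1 other setting. miR-467a-5p was no longer called with median-of-ratios size factors, at a log2 ratio of 1.04 in place of 1.19. miR-467a-3p was no longer called with reads of 16 nt or more, at 1.82 in place of 2.30. miR-467e-3p was no longer called with reads of 21 nt or more, at 2.04. With every listed length on both strands miR-467a-5p lost the call and the other two turned to a ratio below 1. miR-466f-3p lost its call with genome-aligned reads, at −0.64. miR-466k and miR-467f, which carry no arm in their names, had ratios of 3.16 (1.46 to 8.12) and 4.32 (1.91 to 12.1) and were not called.

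Reads of a single length showed which reads carried the called members. Table entries of the same length and with the same counts in all 4 libraries were taken as the same reads if these totalled 10 or more. This step was added after the data were seen. From its first base, miR-467a-5p had 2583 reads of 22 nt in 4T1 cells and 341 in 4TO7 cells (ratio 2.23, 1.99 to 2.50), and 511 and 59 of 21 nt (ratio 2.55, 1.95 to 3.40), so these 2 sets had a similar ratio. The sets of the 3p arms of miR-467 had unlike ratios. The 21 nt set shared by miR-467a-3p, from base 2, and miR-467d-3p, from base 1, numbered 73 in 4T1 cells and 4 in 4TO7 cells (ratio 5.37, 2.01 to 20.3). The 22 nt reads of miR-467d-3p numbered 73 and 26 (ratio 0.827, 0.522 to 1.35), and those of miR-467c-3p 67 and 26 (ratio 0.759, 0.476 to 1.24). A second 21 nt set of these arms, from base 2, had ratios below 1: 27 reads against 11 for miR-467d-3p (ratio 0.723, 0.347 to 1.61), 25 against 11 for miR-467c-3p (0.669) and 24 against 10 for miR-467b-3p (0.707). For miR-467d-3p the 21 nt set from base 1 thus lay above the 22 nt set with no overlap of intervals, whereas the 21 nt set from base 2 overlapped it, so the contrast is between sets of reads and not between lengths. miR-467a-3p and miR-467e-3p, the 3p members that were called, had 10 and 4 reads of 22 nt in 4T1 cells. Most reads of miR-467e-3p were another 21 nt set, listed also under miR-467b-3p, miR-467c-3p and miR-467f, with 68 reads against 4 (ratio 5.01, 1.87 to 18.9), which did not pass the call on its own.

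The 18 nt reads behind miR-466f-3p and miR-466i-3p went the other way. They numbered 28 in cells of 4T1, 52 in those of 4TO7, 0 in 4T1 EVs and 1 in 4TO7 EVs, and the ratio between cells was 0.159 (0.0964 to 0.256). On the sequence of miR-466i-3p printed above they cover bases 3 to 20, shown in capitals on the first line here. The second line shows the window of its 21 nt reads, which numbered 70 in 4T1 cells and 6 in 4TO7 cells (ratio 3.44, 1.5 to 9.68).
miR-466i-3p, bases 3 to 20: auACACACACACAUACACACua
miR-466i-3p, bases 1 to 21: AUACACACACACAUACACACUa
The windows are those of the annotated miRNA, and a read could differ from them at 1 base. Its 22 nt reads numbered 34 and 10, with a ratio of 1.00 (0.484 to 2.27). The same miRNA name thus had a ratio below 1 from its 18 nt reads, above 1 from its 21 nt reads and about 1 from its 22 nt reads. With reads of 21 nt or more, miR-466f-3p had 1 read in cells of 4T1 and 0 in those of 4TO7 and could not be compared.

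**Figure D3:**
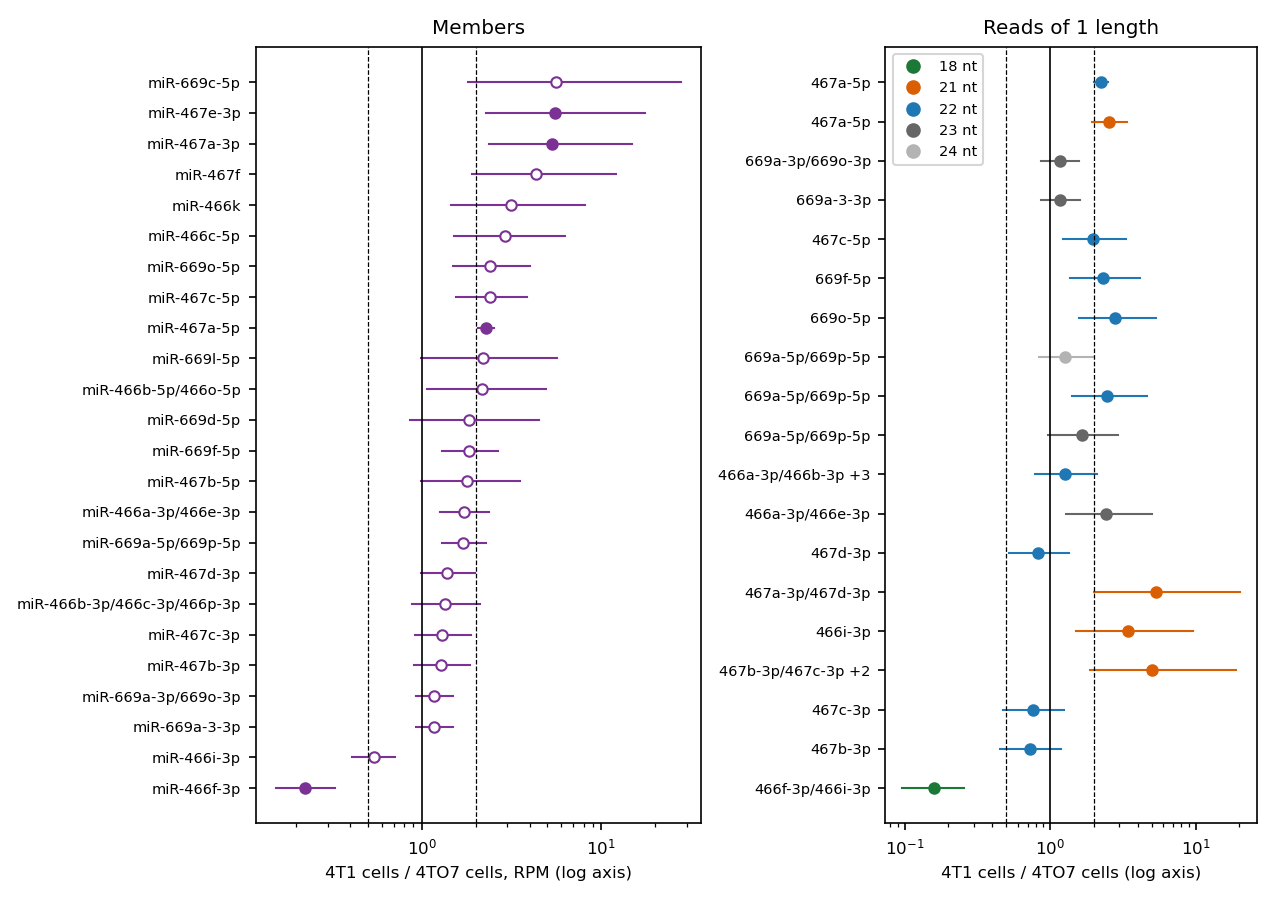
Left, ratio of RPM in 4T1 cells to 4TO7 cells (log axis) for the 24 members compared, with exact 95% counting intervals and filled symbols for calls. Right, the same ratio for reads of 1 length with at least 60 reads in 4T1 cells or 50 in 4TO7 cells, coloured by length: at this size, the 21 nt sets of the miR-467 3p arms lie above 5, their 22 nt sets below 1, and the 18 nt reads of miR-466f-3p/miR-466i-3p at 0.159.

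Read length set the EV members apart from the cell members. In 4T1 cells, 57.6% of member alignments were 22 nt long and 1.49% were 18 nt, against 60.1% and 1.08% for other miRNAs. In 4T1 EVs, 8.89% were 22 nt (5.78 to 12.9) and 68.5% were 18 nt (62.6 to 74.0), against 30.8% and 29.5% for other miRNAs of that library. In 4TO7 EVs, 9 of 60 were 22 nt (7.10% to 26.6%) and 43.3% were 18 nt (30.6 to 56.8), against 52.7% and 17.7%. Short reads were thus more frequent in EVs for all miRNAs, and in these alignment counts more so for the members. The intervals take each alignment as a separate read, but sets of 18 nt reads were listed under several names. The member intervals are thus too narrow, and no weight is put on whether they overlap those of other miRNAs. With sets of equal counts merged, 52 of 217 member alignments in 4T1 EVs and 27 of 59 in 4TO7 EVs were 21 nt or longer. For other miRNAs, whose shared sets were not merged, this was 46.8% in 4T1 EVs and 70.5% in 4TO7 EVs. In 4TO7 cells, 11.5% of member alignments were 18 nt (9.77 to 13.4) against 1.22% for other miRNAs, and the same 52 of these reads were listed under both miR-466f-3p and miR-466i-3p.

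**Figure D4:**
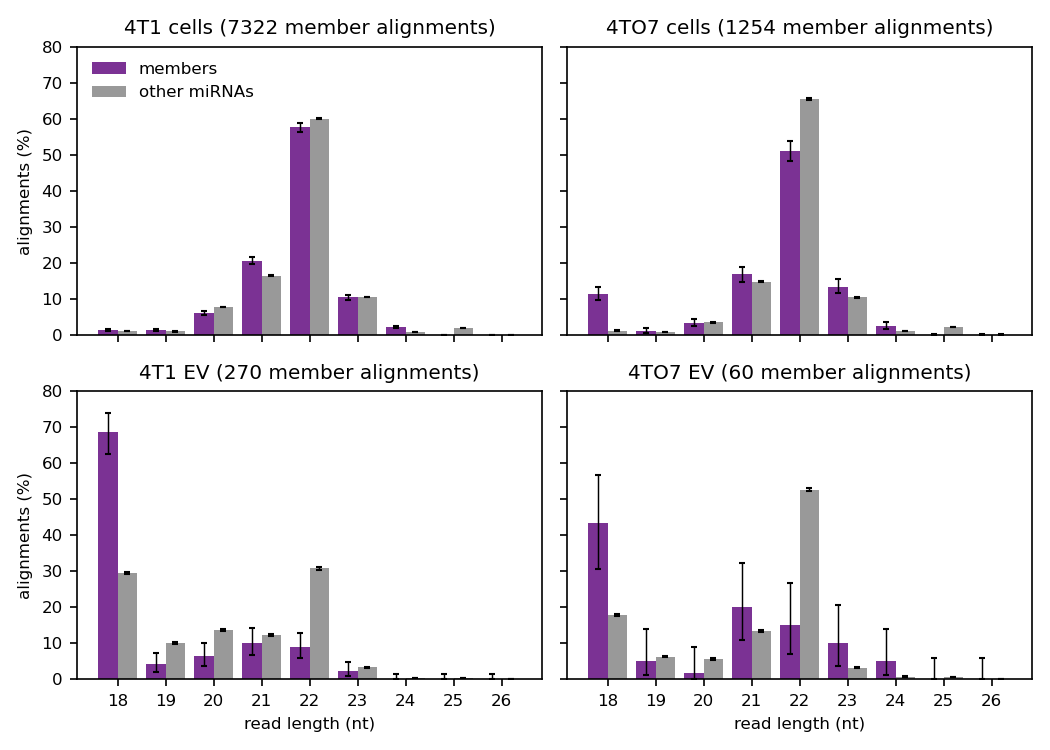
Percentage of alignments at each read length from 18 to 26 nt for members (purple) and other miRNAs (grey) in the 4 libraries. The exact 95% counting intervals take each alignment as a separate read, so those of the members are too narrow. Members peak at 22 nt in both cell libraries, at 57.6% and 51.2%, and at 18 nt in both EV libraries, at 68.5% and 43.3%.

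The 18 nt reads in 4T1 EVs came from a few sets listed under many names. The 3p arms of miR-467a, b, c, d and e each had 12 reads of 18 nt among their 13 or 14 EV reads. miR-669a-5p/miR-669p-5p, miR-669f-5p and miR-669o-5p each had 14 among 16, 16 and 17. miR-297b-5p and miR-297c-5p each had 18 reads in 4T1 EVs, all 18 nt long, against 14 and 47 reads in 4T1 cells of which 0 were 18 nt. miR-669c-5p differed from these, with 11 of 26 EV reads at 22 nt and 9 at 18 nt. The 3 EV reads of miR-467a-5p were 21 nt long. Merging sets of equal counts left 217 alignments in 4T1 EVs, of which 52 were 21 nt or longer, and 6783 in 4T1 cells, of which 6245 (92.1%) were.

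Between the EV libraries no member reached 50 reads, so 0 were compared, while 24.4% of the 82 miRNAs compared were higher in 4T1 and 17.1% lower. With a minimum of 10 reads, 14 members were compared, all 14 through the 4T1 EV library alone (1 to 6 reads in 4TO7 EVs), and 3 were called higher in 4T1 EVs and 0 lower, where 16.9% of all 160 miRNAs were higher and 13.8% lower. These were miR-669c-5p (26 reads against 3, ratio 7.73, 2.37 to 39.9) and miR-297b-5p and miR-297c-5p (18 against 1 each, ratio 16.1, interval from 2.53), the last pair with equal EV counts. These ratios rest on 3 reads and 1 read in 4TO7 EVs.

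The genome alignments held a trace of the repeated block. In the cluster table of 4T1 cells, 12 clusters lay in a row on chromosome 2 of mm9, from chr2:10397980 to chr2:10424937. They were picked by spacing, as clusters of chromosome 2 with several neighbours a few kb away in the same library. That they lie in a row follows in part from this choice. Each was 25 nt wide with 1638 to 1723 alignments, all on the forward strand, and neighbours were 2413 to 2470 nt apart with a median of 2451. These distances were set beside those between hairpins of the Sfmbt2 intron in RefSeq, without converting coordinates between builds. In each hairpin series, the hairpin set at the last cluster was the one that gave most matches. All 11 hairpins of Mir467a and Mir467b matched clusters within 5 nt, as did 11 of 12 of Mir466b, Mir466c and Mir466e, and Mir669a and Mir669p matched all 12 clusters within 6 nt. The eleventh cluster, 2451 nt before the last, had a hairpin at its distance in the Mir669a and Mir669p series alone (Mir669a-11), with 1700 alignments there against 1638 to 1723 in all 12. Which hairpin of the block gave the reads was not tested. The 12 clusters summed to 20149 alignments, and since a read was reported at up to 6 positions, that is at least 3358 reads. Sense reads of 18 nt or more were 3162 for miR-467a-5p, 366 for miR-669a-3p/miR-669o-3p and 354 for miR-669a-5p/miR-669p-5p. No length limit was set on the cluster totals, and miR-467a-5p had 5024 sense reads of every listed length in 4T1 cells, so these numbers are not alike. The other 3 libraries listed 0 such clusters, but no listed cluster had a total below 1300, which is 96.3 RPM of genome-aligned reads in 4T1 cells, 116 in 4TO7 cells, 170 in 4T1 EVs and 252 in 4TO7 EVs. On that scale miR-467a-5p stood at 234 in 4T1 cells and at 36.1 in 4TO7 cells.

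**Figure D5:**
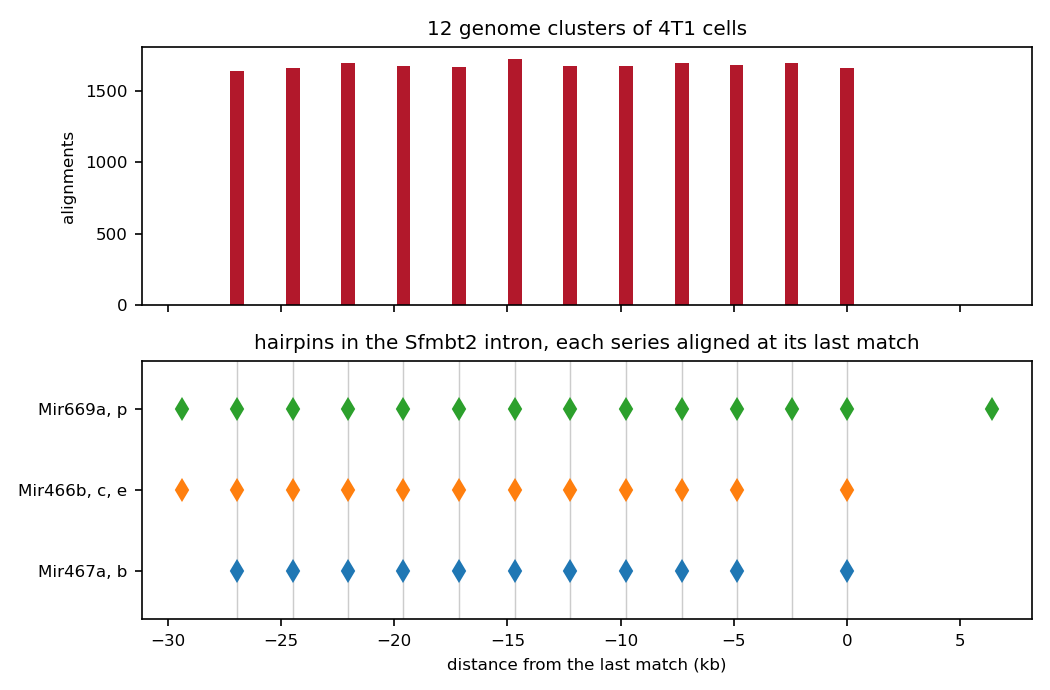
Top, alignments in each of the 12 genome clusters of 4T1 cells, by distance from the last cluster (kb). Bottom, hairpins of 3 series in the Sfmbt2 intron by distance from the hairpin matched to the last cluster, with grey lines at the clusters: neighbouring clusters and neighbouring hairpins have nearly the same spacing, with a median of 2451 nt between clusters.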

How the data were processed

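Small RNA was sequenced from 4T1 and 4TO7 cells and their EVs, 1 library for each of 4 groups. Per the submitters' processing notes, cutadapt, Bowtie and bedtools were used with mm9, and versions are not given in the sources used here. The deposited alignment logs show 1 mismatch allowed, up to 6 positions per read on mm9 and up to 10 matches per read on mature miRNAs, so near-identical members share reads. The authors deposited raw alignment counts by miRNA, strand, start and length, and by genome cluster.

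Sense counts of 18 nt or more were summed per name and names with equal counts collapsed (Python 3.11.15, pandas 2.3.3, scipy 1.17.1). RPM used all such alignments as the total. Ratios have exact conditional binomial 95% intervals, for miRNAs that reach 50 reads in either library, and log2 ratios have 0.5 reads added. A call needs an interval wholly past 2-fold. There is no p-value, since each group is 1 library. Named members are those with 50 or more reads in 1 library, with full values for the 12 with most reads in 4T1 cells, the 6 with most in each other library and each called member. The members, lists and rules were chosen with earlier results of these data known. Scaling factors for the alternatives came from edgeR 4.0.16 (TMM) and DESeq2 1.42.0 (R 4.3.3). The read-length tables were not used.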

Additional observations from a re-analysis of the deposited data

Results flagged for a closer look

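Reads on the antisense strand of the members, which enter none of the comparisons, lay above the 3 counts that 0 reads would allow in 3 libraries. Alignments of 18 nt or more numbered 49 for 4T1 cells, 82 for 4TO7 cells, 4 for 4T1 EVs and 1 for 4TO7 EVs. Of these, 39 from the 4T1 cells and 73 from the 4TO7 cells were listed under miR-466i-5p, of which 37 and 72 were of 18 nt, and the sense strand of the same miRNA had 10 and 11 reads. Members made up 1.17% of all antisense miRNA alignments of that length for 4T1 cells and 6.00% for 4TO7 cells. The source of these reads was not tested.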

How the results depend on the processing

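No paired analysis was possible because each group is 1 library, and for the same reason no replicate could be left out. Unless named below, the counts of called members stayed within 1.5 times and the medians stayed within the members' own spread; 72 of the 113 values recomputed for the shares, counts and medians did so. The causes of the changes were not tested, beyond what each setting changes by its construction.

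Among the values of single called members, 153 kept their call, 19 lost it in the same direction and 3 turned. Adding 5 reads, lowering the minimum, not collapsing or leaving out outside members could not change the call of a member. Many of the 153 were thus fixed by construction and do not show that calls are stable. Members that fell below the minimum under a setting, as most did after thinning, are left out of these numbers. For EVs against cells in 4T1, where 6 members were called, 11 were called with reads of 16 nt or more, 2 with reads of 21 nt or more, 36 with every listed length on both strands, 23 with genome-aligned reads as the library size, 2 with median-of-ratios size factors and 1 after thinning the cells to the EV depth. Over all miRNAs the first 5 of these settings, in this order, called 60.2%, 29.3%, 39.5%, 87.6% and 32.8% of those compared, in place of 41.3%, and after thinning 49 of 98. Its median log2 ratio was −3.51 with genome-aligned reads, −0.14 with 5 reads added and −6.40 after thinning, where only miR-467a-5p was left. For 4TO7, where 6 were called, 46 were called with every length on both strands (33.0% of all miRNAs) and 1 after thinning (61.3% of all), and the median was −1.86 with 5 reads added, −2.31 with a minimum of 10 reads, −1.03 with no minimum and −6.35 after thinning. Between cells, where 4 were called, 2 were called with reads of 21 nt or more, 8 with every length on both strands, 22 with genome-aligned reads and 2 after thinning, while 18.1%, 9.64%, 64.7% and 20.7% of all miRNAs were called, in place of 19.4%. The median there was 2.34 with genome-aligned reads and turned to −0.46 with every length on both strands, where miR-467a-3p (−0.45) and miR-467e-3p (−0.49) turned too. Between EVs, 3 members were called with a minimum of 10 reads (30.6% of all miRNAs) and 3 with no minimum (13.5% of all). miR-669c-5p in 4T1 turned to −0.29 with genome-aligned reads.

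The share in 4T1 cells was 1.31% with reads of 16 nt or more, 1.44% without collapsing, 1.15% without members placed outside Sfmbt2 and 1.12% with sets of equal counts merged, a setting chosen after seeing the data. In 4TO7 cells it was 0.944% at 16 nt, 0.628% at 21 nt, 1.68% with every length on both strands, 0.860% without collapsing, 0.640% without outside members and 0.643% with sets of equal counts merged. In 4T1 EVs it was 0.290% at 16 nt, 0.210% at 21 nt, 0.309% with every length on both strands, 0.554% without collapsing and 0.374% with sets of equal counts merged. In 4TO7 EVs it was 0.0824% at 21 nt, 0.177% with every length on both strands and 0.157% without collapsing. The line difference was called for 0 members under both alternatives tried. The 24 members that 4T1 cells brought past 50 reads would have at the same RPM as few as 4.80 reads in 4T1 EVs, so the EV depth limits each single ratio.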
